A study of Mus musculus with 6 samples.

Results

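The genes described here encode 3 layers of the machinery that moves sodium, potassium and chloride across the choroid plexus epithelium. They are the sodium pump beta subunits Atp1b1 and Atp1b2, the cation-chloride cotransporters Slc12a2, Slc12a4 and Slc12a7, and the kinases Wnk1, Stk39 and Oxsr1. They were found by symbol: a probe set, the group of short array probes that together report one transcript, was taken if the platform annotation gave it 1 of these 8 symbols and no other. All 8 genes had such probe sets, 20 of the 45037 that are not controls, and all 8 were among the 12681 genes tested. The data came from 6 arrays of male CD1 mice, an outbred stock, 3 aged 18 months and 3 aged 2 months, with 1 mouse to an array and the plexuses of both lateral ventricles in each sample. The labels give no treatment, genotype or transgene for either age. Amplified RNA was hybridised to Affymetrix arrays, so that levels of one probe set can be compared between mice but not with those of another gene.

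The choroid plexus secretes cerebrospinal fluid by moving ions from blood to ventricle, and water follows. Unlike most epithelia, this one carries its sodium pump on the apical side, facing the ventricle, together with the sodium-potassium-chloride cotransporter NKCC1, the product of Slc12a2. The pump needs a catalytic alpha subunit and a beta subunit, which brings the complex to the membrane. WNK kinases respond to chloride and osmotic stress and switch on the kinases SPAK (Stk39) and OSR1 (Oxsr1). These phosphorylate NKCC1, which activates it, and the potassium-chloride cotransporters, which inhibits them. Much of this control acts on the proteins and is not read by an array of transcripts.

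None of the 8 genes passed the test for a difference between the ages. The steadiest was Slc12a2, with a log2 difference of -0.04, and the gene with the smallest p was Wnk1, measured 1.28-fold higher at 18 months. By limma (two-sided, 18 months minus 2 months, Benjamini-Hochberg over all genes tested) 0 of 8 passed an adjusted p of 0.05, as did 0% of all genes (also 0 by an ordinary 2-sample test with the same adjustment), and the lowest adjusted p of the 8 was 0.751. At an unadjusted p under 0.05 there were 0 of 8 in that fit, against 7.05% of all genes, and 1 of 8 by the ordinary test, against 6.62%. The log2 difference was above 0 for 5 genes (50.4% of all genes) and below 0 for 3 (49.6%), with a median of 0.07 beside 0.00 over all genes. Its size had a median of 0.14 for the 8 genes and 0.21 for all genes. These values are those of the brightest probe set of each gene. By it, the 95% confidence interval of 7 of the 8 lay within a 2-fold change in either direction. Of all genes 63.5% had such an interval, and the exception among the 8 was Slc12a4. Dimmer probe sets of Slc12a7 (interval -1.75 to 0.33) and Stk39 (-1.39 to 0.26) also reached beyond a 2-fold change.

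**Figure D1:**
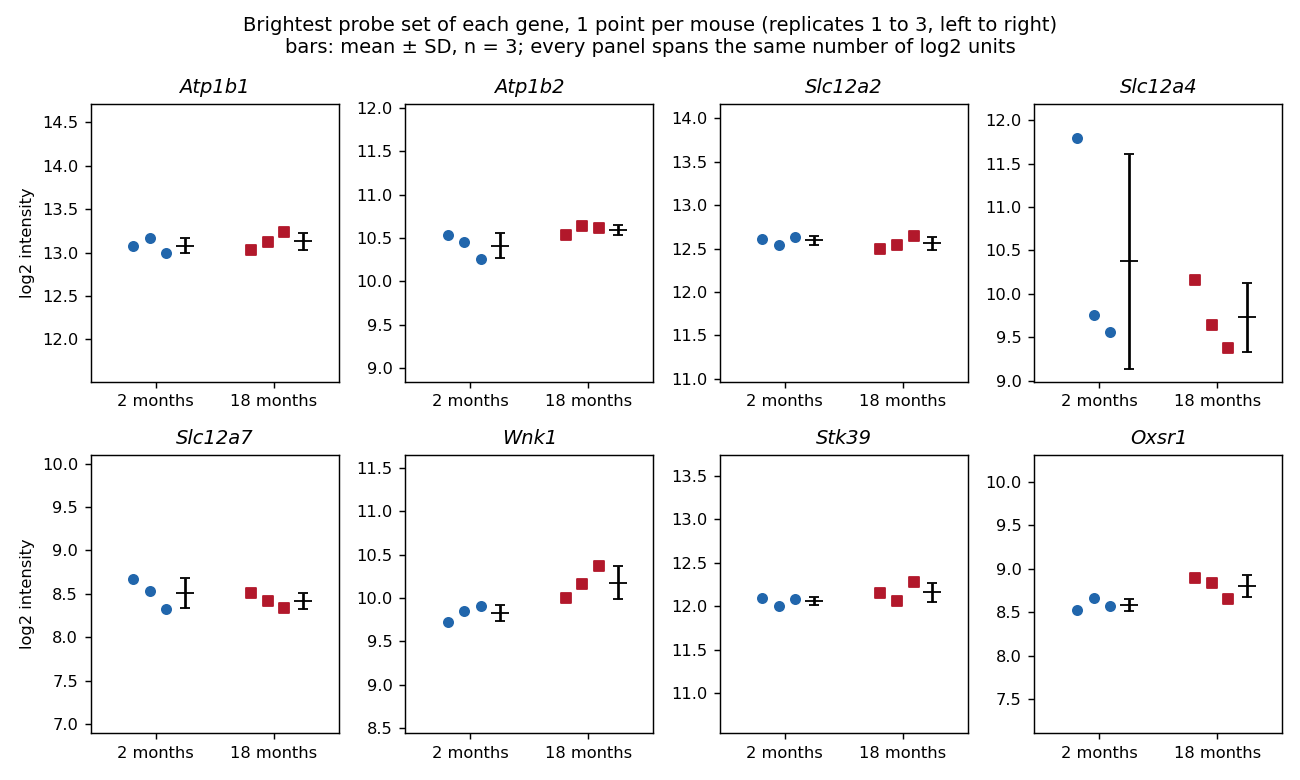
The log2 intensity of the brightest probe set of each gene, 1 point per mouse, for 2 months (blue circles) and 18 months (red squares), with mean ± SD beside them (n = 3 each) and panels of equal span. The ages overlap in every panel but that of Wnk1, and 1 mouse at 2 months stands at 11.80 for Slc12a4.

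The samples carried the transcripts of the plexus epithelium. The log2 intensities of the 10 tested epithelial markers were averaged within each mouse. These means lay between 12.51 and 12.59 at 18 months and between 12.48 and 12.59 at 2 months. Among the markers were Ttr (14.30 ± 0.05 and 14.47 ± 0.01, SD, n = 3 each) and Kl (12.50 ± 0.06 and 12.44 ± 0.12). Of the 10, 7 were measured lower and 3 higher at 18 months (49.6% and 50.4% of all genes). The ages did not overlap for Ttr (-0.17), Sostdc1 (-0.23) and Aqp1 (0.64), where 13.3% of all genes had separate ranges. Transcripts of brain cells were present too, in amounts that differed from mouse to mouse. The mean over 9 neuron markers ranged from 6.74 to 8.43 at 18 months and from 6.71 to 8.45 at 2 months. For 8 oligodendrocyte markers it ranged from 7.70 to 9.03 and from 6.84 to 8.63, and for 8 astrocyte markers from 7.70 to 8.57 and from 7.24 to 8.33. No marker was at 0, since array values have a background, and the list means of endothelium, stroma and pericytes overlapped between the ages as well. Single markers could still lie apart, as 13.3% of all genes did. Of 7 stroma markers 5 were measured lower at 18 months, Dcn (-0.72) and Col1a2 (-0.48) with separate ranges. The other 2 were higher, Pdgfra (1.95) with separate ranges. Of 8 oligodendrocyte markers 7 were higher, Mog (1.75) with separate ranges, and 1 was lower. The 2 lists whose means lay apart between the ages were those of macrophages and of ependymal and multiciliated cells. The macrophage means (10 markers, 9 higher and 1 lower) were 7.76 to 8.19 at 18 months and 6.92 to 7.56 at 2 months. The ependymal means (9 markers, all 9 lower) were 8.86 to 8.98 and 9.23 to 9.57. Among these markers the cilium regulator Foxj1 had 8.64 ± 0.22 and 8.95 ± 0.09 (SD, n = 3 each). Ak7 read 12.39 in 2-month replicate 2, against 9.17 and 8.99 in the other 2-month mice, which raised that list mean. Dynlrb2 (-0.02), Rsph1 (-0.11) and Cfap126 (-0.09) had ages that overlapped. Because the tissue was profiled whole, fewer cells of a type and less RNA per cell cannot be told apart.

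Atp1b1 encodes the β1 subunit of the sodium pump. Its brightest probe set (1423890_x_at) had values of 13.03, 13.12 and 13.23 on the log2 scale in replicates 1 to 3 at 18 months, against 13.07, 13.17 and 13.00 at 2 months. The ages overlapped throughout. The log2 difference was 0.05 (SE 0.16, 95% confidence interval -0.33 to 0.43), which is 1.03-fold, with an interval from 0.794-fold to 1.35-fold (limma, adjusted p = 0.963). Its sign turned when the 5 probe sets were averaged (-0.01) and when 18-month replicate 3 was left out (-0.004). The 5 probe sets gave differences from -0.13 to 0.09, the lowest from a dim one with a mean log2 of 5.87. One of the bright ones (1418453_a_at) had ranges that were separate by 0.0083, at 12.88, 12.79 and 12.86 against 12.77, 12.71 and 12.78, for a difference of 0.09 (limma over all probe sets, unadjusted p = 0.561). The suffix x marks probe sets whose probes may also read similar sequences, and the suffix a those that read several transcripts of the same gene.

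Atp1b2 encodes the β2 subunit, also known from glia as an adhesion molecule. Its brighter probe set read 10.53, 10.64 and 10.62 at 18 months and 10.54, 10.45 and 10.25 at 2 months. The ages overlapped only through 2-month replicate 1, which exceeded 18-month replicate 1 by 0.0072. The difference was 0.18 (SE 0.16, interval -0.21 to 0.57) or 1.13-fold (limma, adjusted p = 0.852). The second probe set gave 10.57, 10.28 and 10.45 against 10.28, 9.93 and 10.14, a difference of 0.31 (SE 0.17), and here 2-month replicate 1 exceeded 18-month replicate 2 by 0.0078. Both probe sets were thus measured higher at 18 months, and neither passed the test. Over the 16 alternative settings the gene's difference lay between 0.10 and 0.25. With its probe sets averaged, Atp1b2 was the 1 gene of the 8 with separate ages, in place of Wnk1 (13.3% of all genes). The astrocyte markers, glia being a known source of this subunit, differed by 0.21 between the age means of their list, and their part in the value was not tested.

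Slc12a2, the gene of NKCC1, had the most even values of the 8. Its brightest probe set read 12.49, 12.54 and 12.65 at 18 months against 12.61, 12.54 and 12.64 at 2 months, and all 6 mice lay within 0.15. The log2 difference was -0.04 (SE 0.15, interval -0.40 to 0.33), an interval from 0.757-fold to 1.26-fold (limma, adjusted p = 0.972). The other probe sets gave -0.05 and 0.00, so all 3 put the difference close to 0. A larger change of this transcript lay outside that interval, whereas a change inside it could not be told from none with 3 mice an age.

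The potassium-chloride cotransporters were read by fewer probe sets. Slc12a4, which encodes KCC1, a widely expressed exporter used in cell volume control, had 1 probe set. It read 10.16, 9.64 and 9.38 at 18 months and 11.80, 9.76 and 9.56 at 2 months. A single mouse, 2-month replicate 1, stood 1.64 log2 units above the next highest, while the other 5 lay within 0.78 of each other. The log2 difference of -0.65 (SE 0.60, interval -2.09 to 0.80; limma, adjusted p = 0.858) rested on that mouse. Without it the difference was 0.07 (adjusted p = 0.981). Over the remaining settings it ranged from -1.05, without 2-month replicate 3, to -0.47.

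Slc12a7 encodes KCC4, another exporter of potassium and chloride. Its brighter probe set read 8.52, 8.42 and 8.33 at 18 months and 8.67, 8.53 and 8.32 at 2 months, a difference of -0.09 (SE 0.17, interval -0.50 to 0.32; limma, adjusted p = 0.936). It was -0.005 without 2-month replicate 1 and -0.18 without 2-month replicate 3. The dimmer one (1449011_at) spread far more, with 7.04, 6.51 and 7.01 against 7.83, 8.24 and 6.62, and gave -0.71 (SE 0.43; limma over all probe sets, unadjusted p = 0.146). Both were measured lower at 18 months and the ages overlapped in both. With both averaged the gene's difference was -0.40 (adjusted p = 0.792).

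By its brightest probe set Wnk1, the kinase at the head of the cascade, was the 1 gene of the 8 whose ages did not overlap, where 13.3% of all genes had separate ranges (7.06% higher and 6.25% lower at 18 months). This probe set (1433676_at) read 9.997, 10.17 and 10.37 at 18 months and 9.72, 9.85 and 9.91 at 2 months. The nearest mice of the 2 ages were 0.087 apart. The difference was 0.35 (SE 0.17, interval -0.07 to 0.77) or 1.28-fold, with an unadjusted p of 0.0870 and an adjusted p of 0.751 (limma); 11.6% of all genes had a smaller p. The ordinary 2-sample test, which uses each gene's own spread alone and was run over all genes, gave an unadjusted p of 0.0444 and an adjusted p of 0.747.

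The other probe sets for Wnk1 did not repeat those values. One (1436746_at) read 9.26, 9.57 and 9.16 at 18 months and 9.43, 9.32 and 8.70 at 2 months, a difference of 0.18 (SE 0.25). The other (1437888_at) read 8.26, 7.81 and 7.76 against 7.65, 8.34 and 8.10, a difference of -0.09 (SE 0.25). In both the ages overlapped, and averaging the 3 probe sets gave 0.15 for the gene (limma, adjusted p = 0.884) with ages that overlapped. Wnk1 is known to be transcribed in several forms, but which of them each probe set reads was not analysed here. With the neuron markers as a covariate the brightest probe set gave 0.34 and without 18-month replicate 3 it gave 0.25. The macrophage and ependymal lists also lay apart between the ages, as given above, and their part in the difference was not tested.

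**Figure D2:**
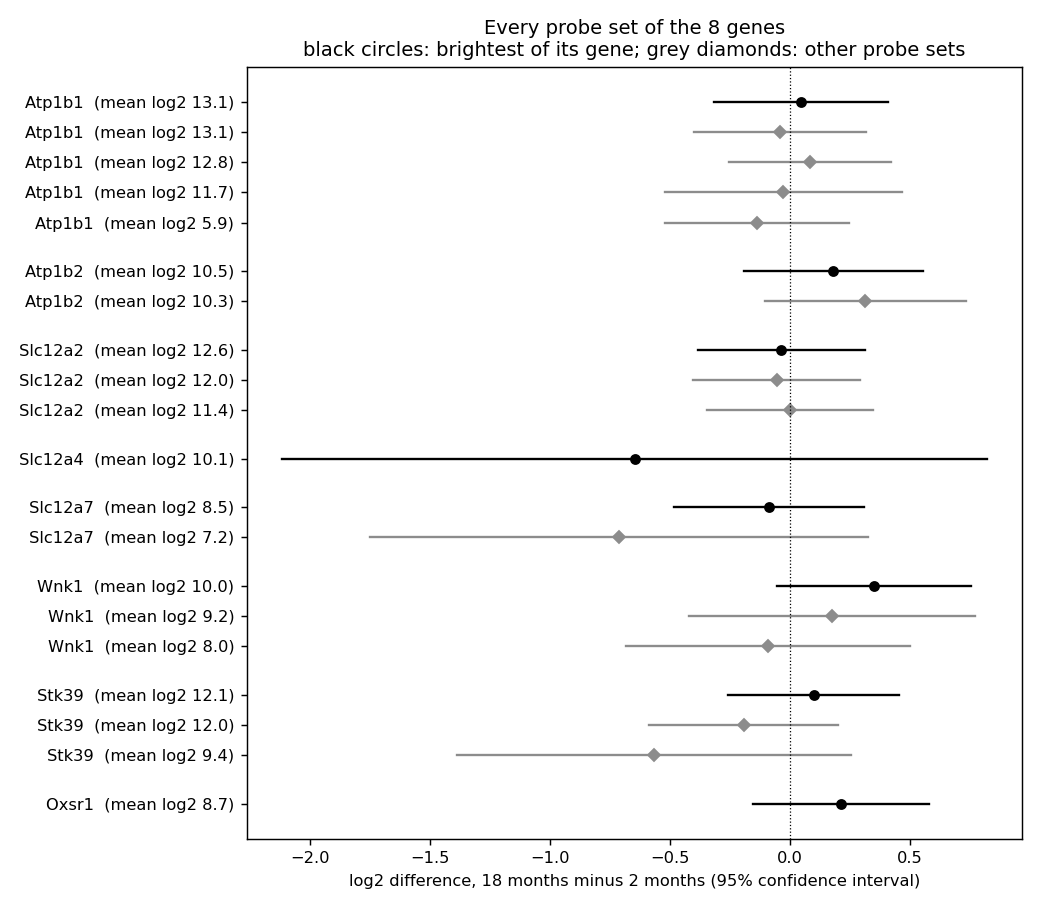
The log2 difference (18 months minus 2 months) of each of the 20 probe sets with its 95% confidence interval from limma over all probe sets, black circles for the brightest of each gene and grey diamonds for the others. Every interval includes 0, and the probe sets of Atp1b1, Slc12a2, Wnk1 and Stk39 lie on both sides of it.

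Stk39 encodes SPAK, the kinase that phosphorylates NKCC1 in many epithelia. Its brightest probe set (1419551_s_at) read 12.15, 12.06 and 12.28 at 18 months and 12.10, 12.01 and 12.08 at 2 months, a difference of 0.10 (SE 0.16, interval -0.27 to 0.47; limma, adjusted p = 0.917). A probe set of like brightness (1419550_a_at) went the other way, with 12.05, 12.04 and 11.73 against 12.09, 12.11 and 12.20. There the ages were separate, with the nearest mice 0.0445 apart, and the difference was -0.19 (SE 0.16; limma over all probe sets, unadjusted p = 0.279). The third (1431434_at) read 8.57, 9.55 and 9.27 against 9.90, 9.16 and 10.02, a difference of -0.57 (SE 0.34). The sign for the gene therefore depended on the probe set, and averaging all 3 gave -0.22 (adjusted p = 0.834). The suffix s marks probe sets whose probes may be shared with other transcripts.

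Oxsr1 encodes OSR1, the close relative of SPAK that shares its targets. Its only probe set read 8.90, 8.84 and 8.66 at 18 months and 8.53, 8.66 and 8.57 at 2 months. The highest mouse at 2 months exceeded the lowest at 18 months by 0.0051, and the ages otherwise lay apart. The difference was 0.21 (SE 0.16, interval -0.17 to 0.60) or 1.16-fold (limma, adjusted p = 0.833). It stayed between 0.16 and 0.32 over the alternative settings.

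Over all 20 probe sets, 9 were measured higher and 11 lower at 18 months. By limma over all probe sets, 0 of the 20 passed an adjusted p of 0.05, against 0.00222% of all, and 0 had an unadjusted p under 0.05, against 5.68%. The ages did not overlap for 3 of the 20, against 11% of all probe sets. These 3 were 1 each of Atp1b1 and Wnk1, measured higher, and 1 of Stk39, measured lower. All 20 had a mean above 4.92, the level required for testing, and above the 27 bacterial control probe sets, of which the brightest averaged 4.51.

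The genes differed in how much they varied between mice of one age. The standard deviation within an age, pooled over both, was 0.067 for Slc12a2, 0.084 for Stk39, 0.095 for Atp1b1, 0.10 for Oxsr1, 0.11 for Atp1b2, 0.14 for Slc12a7, 0.15 for Wnk1 and 0.92 for Slc12a4. Between 1.64% and 12.9% of all genes had a smaller spread than the 7 steadier ones, and 95.2% had a smaller spread than Slc12a4. Bright probe sets vary less in general. Among genes within 0.5 log2 units of the same mean level, 20.6% of 238 were steadier than Slc12a2, 60% of 135 were steadier than Atp1b1 and 2.61% of 2143 were steadier than Oxsr1. At its level 98.6% of 1318 genes were steadier than Slc12a4.

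**Figure D3:**
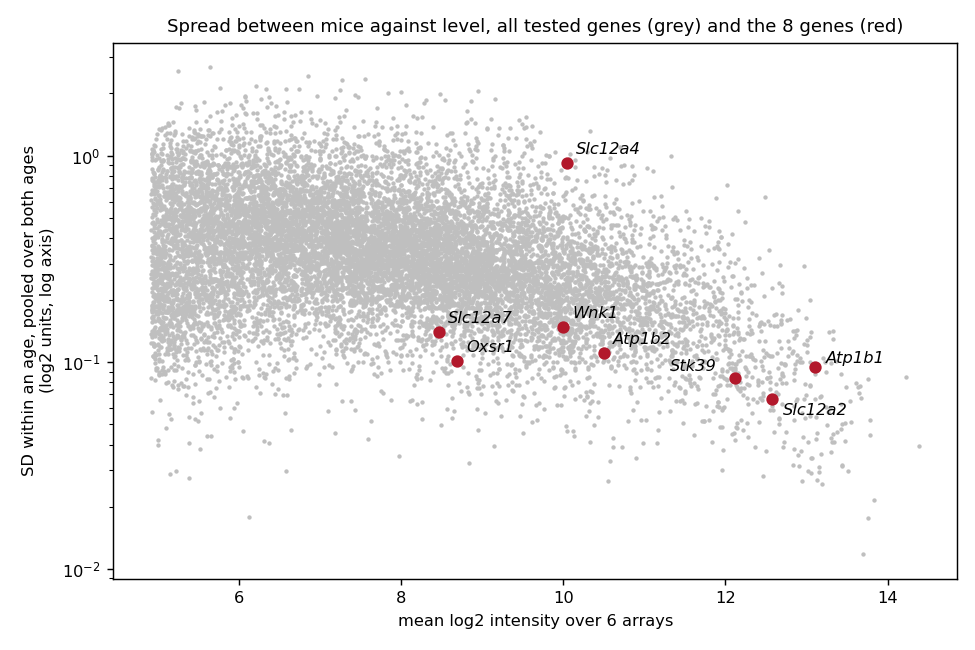
The standard deviation between mice of one age, pooled over both ages (log2 units, log axis), against the mean log2 intensity over 6 arrays for the 12681 genes tested (grey) and the 8 genes (red). Slc12a2, Stk39 and Atp1b1 lie among bright genes of small spread, and Slc12a4, at 0.92, lies near the top for its level.

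To find transcripts of like profile, each gene's 6 log2 values were centred on their mean and compared with those of every other gene tested by the root mean square difference. Those nearest to Atp1b1 were Slc25a39, a mitochondrial carrier gene (0.028), and Ctsb, which encodes the lysosomal protease cathepsin B (0.030). Atp1b2 lay nearest to Otud5 (0.028) and Agmat (0.028), Slc12a2 to Sacm1l (0.024) and the receptor gene Notch2 (0.027), and Slc12a7 to Apmap (0.027) and Ybx1 (0.030). Among the kinases, Wnk1 lay nearest to Pop7 (0.041) and Srxn1 (0.051), Stk39 to Crtap (0.030) and the clathrin heavy chain gene Cltc (0.033), and Oxsr1 to Anapc5 (0.039) and Actn1 (0.042). For these 7 genes the nearest 1% of all genes came within 0.073 to 0.13. None of the nearest genes was another of the 8. Within the 8, the closest pair was Slc12a2 and Stk39 at 0.081, both with flat profiles, which any such pair brings close, and pairs with Slc12a4 lay between 0.71 and 0.98 apart.

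Slc12a4 was a different case, since its profile was not flat. The nearest genes were Gnpda1, which encodes a glucosamine-6-phosphate deaminase (0.061), and Mdk, the growth factor midkine (0.12), where the nearest 1% of all genes came within 0.47. Gnpda1 read 6.22, 5.86 and 5.47 at 18 months and 7.87, 5.91 and 5.74 at 2 months, and Mdk 8.45, 7.78 and 7.49 against 9.87, 7.71 and 7.86. All 3 genes were highest in 2-month replicate 1 and next highest in 18-month replicate 1. Gnpda1 and Mdk were picked for their likeness to Slc12a4, so the shared order follows from the choice.

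Among 44 related genes listed beside these, 28 were tested and 0 passed an adjusted p of 0.05 by limma. At an unadjusted p under 0.05, 2 were higher, where 4.02% of all genes were, and 0 lower, where 3.03% were. The log2 difference was above 0 for 17 and below 0 for 11 (50.4% and 49.6% of all genes), with a median of 0.07. The ages did not overlap for 9 of the 28, where 13.3% of all genes did not. The members of the lists were chosen with earlier results of these data known, so these counts are a description.

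On the list of other pump subunits 1 gene was tested, Atp1b3, which encodes the β3 subunit. It had 11.64 ± 0.19 at 18 months and 11.77 ± 0.14 at 2 months (SD, n = 3 each), and the difference on the log2 scale was -0.14 (SE 0.18). Atp1a4 and Atp1b4 lay below the level required for testing. FXYD proteins are small membrane proteins that tune the pump. Of 7 listed, 4 were tested, and all 4 were above 0 (median 0.32), where 50.4% of all genes were. Fxyd3, Fxyd4 and Fxyd6 lay below the level required for testing. The ages did not overlap for 2 of the 4, where 13.3% of all genes had separate ranges. Fxyd1, the gene of phospholemman, read 13.16, 13.13 and 13.09 at 18 months and 13.00, 13.04 and 12.97 at 2 months, with separate ranges and a difference of 0.13 (SE 0.15). Fxyd7 was the other with separate ranges, at 5.44 ± 0.07 and 5.06 ± 0.31 (SD, n = 3 each; difference 0.38, SE 0.21). Fxyd5 (0.41, SE 0.33) and Fxyd2 (0.26, SE 0.40) overlapped, and Fxyd2 was -0.19 without 18-month replicate 1. Fxyd5 ranged from 0.19, without 18-month replicate 3, to 0.71, without 2-month replicate 3, and was 0.10 without 18-month replicate 3 and 2-month replicate 2 together.

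Other members of the SLC12 family were Slc12a5, which encodes the neuronal chloride exporter KCC2, and Slc12a9. Slc12a5 read 8.12, 8.14 and 9.39 at 18 months and 8.004, 7.74 and 8.43 at 2 months, highest at each age in replicate 3, the mice with the highest neuron markers of their age (8.43 and 8.45). Its difference was 0.49 (SE 0.39), and without 18-month replicate 3 and 2-month replicate 2, the arrays at the ends of principal component 1, it was -0.08. Without 18-month replicate 3 alone it was 0.08, and with the neuron covariate 0.45. Slc12a9 read 7.68, 7.69 and 7.65 against 7.62, 10.52 and 7.14. Its difference of -0.75 (SE 0.83) rested on 2-month replicate 2, without which it was 0.29. Slc12a1 and Slc12a3, which encode the cotransporters of the kidney tubule, had means of 2.44 and 3.67, at the level of the bacterial controls.

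Of the other WNK pathway genes 9 were tested, 6 above 0 and 3 below (50.4% and 49.6% of all genes), with a median of 0.06. The ages did not overlap for 2 of the 9, where 13.3% of all genes had separate ranges. Nedd4l, a ubiquitin ligase gene, had the smallest p of these (-0.57, SE 0.29), but 0.17 when all its probe sets were averaged. Ppp1ca, the gene of a catalytic subunit of protein phosphatase 1, read 10.64, 10.86 and 10.57 at 18 months and 10.49, 10.19 and 10.37 at 2 months, with separate ranges and a difference of 0.33 (SE 0.18). Cab39, which encodes the scaffold MO25 that raises the activity of SPAK and OSR1, was the other with separate ranges, at 9.20, 9.37 and 9.16 against 9.57, 9.58 and 9.40 and a difference of -0.27 (SE 0.16). Its paralog Cab39l differed by 0.05 (SE 0.16). Wnk2 differed by 0.49 (SE 0.35), with 9.12 in 18-month replicate 2 alone, and by -0.13 when its probe sets were averaged. Limma gave adjusted p of 0.766 for Nedd4l, 0.769 for Ppp1ca and 0.786 for Cab39.

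Ion and water transporters of the same epithelium gave 6 genes above 0 and 6 below (12 tested, median 0.01). The ages did not overlap for 5 of the 12 (13.3% of all genes), Aqp1 and Kcna3, measured higher, and Slc4a2, Slc4a10 and Car2, measured lower at 18 months. The 2 genes with an unadjusted p under 0.05 (7.05% of all genes) were both here. Aqp1, the water channel of the apical membrane, read 11.40, 11.99 and 12.02 at 18 months and 11.15, 11.39 and 10.95 at 2 months. Its difference was 0.64 (SE 0.24) or 1.56-fold (limma, adjusted p = 0.682). Kcna3, a voltage-gated potassium channel gene, differed by 0.69 (SE 0.26, limma, adjusted p = 0.682). It had 4.89 ± 0.38 at 2 months and 5.58 ± 0.29 at 18 months (SD, n = 3 each). Its mean at 2 months was below the level required for testing (4.92). Kcna3 was thus tested only through its values at 18 months, so the filter itself favoured a higher value at that age. Car14, a carbonic anhydrase gene, differed by 0.42 (SE 0.22) and the chloride channel gene Clcn2 by 0.44 (SE 0.35). The bicarbonate transporter genes Slc4a2, Slc4a5 and Slc4a10 were at -0.11, -0.02 and -0.15, each with an interval within a 2-fold change.

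**Figure D4:**
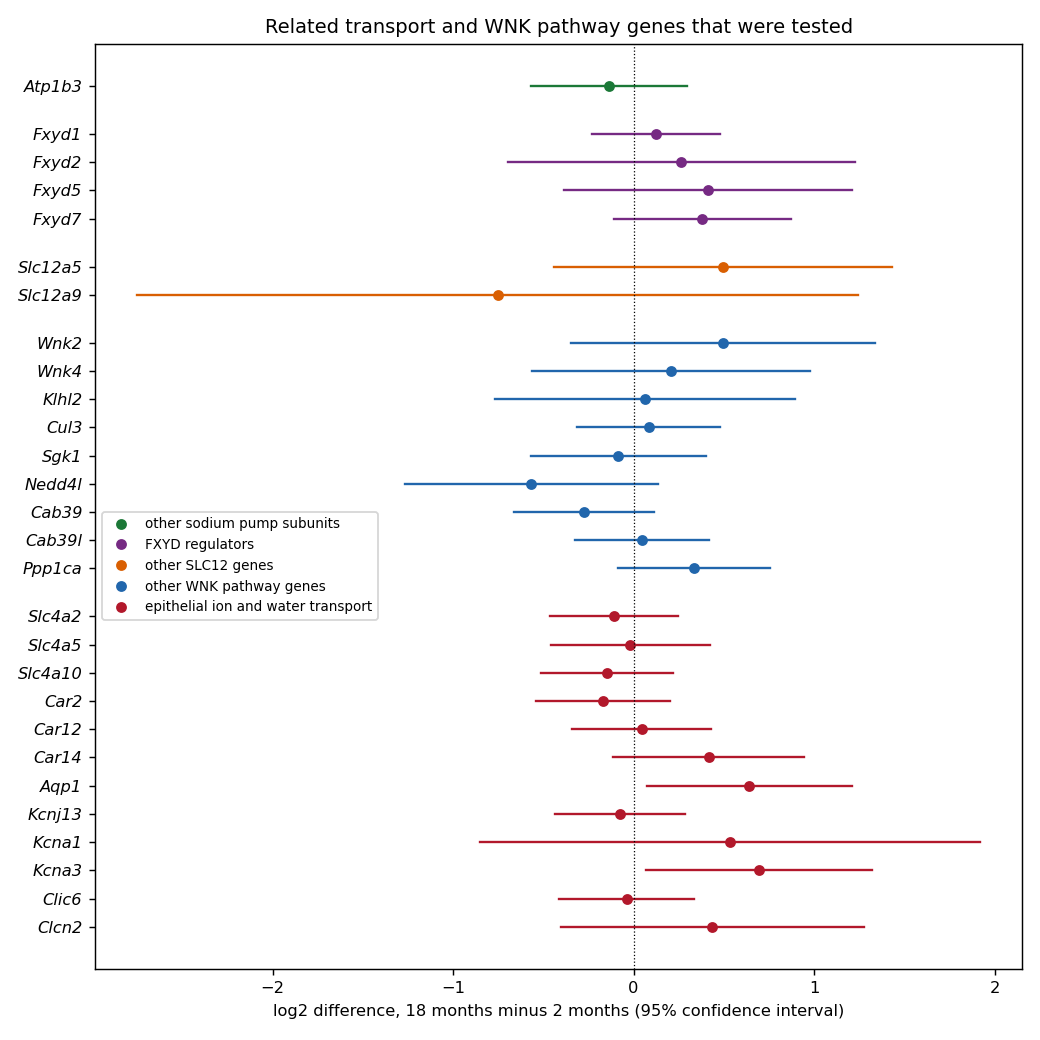
The log2 difference (18 months minus 2 months) with its 95% confidence interval from limma for the 28 related genes tested, coloured by list. Only the intervals of Aqp1 and Kcna3 lie above 0 without adjustment, and those of Slc12a9 and Kcna1 are the widest.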

How the data were processed

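Per the submitters' processing notes, the authors made the deposited intensity values with RMA (background correction, normalization between arrays, 1 value per probe set); a version and a genome build are not given in the sources used here. The intensities ran from 2.47 to 26820.7, a linear scale, and their log2 was taken. Array medians lay between 5.56 and 5.65, and 0 pairs of arrays were identical. Of 45037 probe sets that are not controls, 34945 carried 1 symbol. For each gene the probe set with the highest mean stood for it, and genes with that mean at or above the 40th percentile of probe sets (4.92) were tested. The ages were compared with limma 3.58.1 in R 4.3.3 (lmFit, eBayes, no covariates, 6.61 degrees of freedom); every probe set was also fitted without a filter. The code was tested on simulated data. Per the labels each array is a separate mouse; the number of arrays limits the precision. Members, lists and tests were chosen with earlier results of these data known. Named genes are the 8 members with all their probe sets, the 4 tested genes of each related list with the smallest p, the 2 nearest profiles of each member and 6 markers; further genes were named after their values were seen. Numbers shared between ages were not taken as pairs, since the labels name no pairs. Alternatives were other filters, all probe sets averaged, quantile normalization, median centring, each mouse left out, component-end arrays left out, a replicate block, a neuron covariate, array weights and an ordinary 2-sample test.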

Additional observations from a re-analysis of the deposited data

How the results depend on the processing

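None of the 8 genes reached an adjusted p of 0.05 under any of the 16 alternative settings, and their smallest adjusted p lay between 0.678 and 0.884. Over all genes, those called higher numbered 3 with a 60th percentile filter, 5 with the mean of all probe sets, 4 with median centring, 1 with the neuron covariate and 3 with array weights, and those called lower 1 with the 60th percentile filter, median centring or array weights; 0 without any single mouse. Of the 8 genes, 1 (Wnk1) had an unadjusted p under 0.05 by the ordinary 2-sample test, against 6.62% of all genes. Those with separate ranges numbered 2 with quantile normalization (Wnk1 and Oxsr1; 13.3% of all genes) or median centring (Wnk1 and Atp1b2; 12.4%), 1 with probe sets averaged (Atp1b2, not Wnk1; 13.3%), 2 without each single mouse (where 22% to 24.9% of all genes were separate) and 3 without both component-end arrays (38.4%). Signs turned when all probe sets of a gene were averaged for Atp1b1 (-0.013), Stk39 (-0.22), Nedd4l (0.17), Wnk2 (-0.13) and Aqp4 (-0.085). Without both component-end arrays they turned for Slc12a5 (-0.083), Slc12a9 (0.31), Snap25 (-0.67), Mbp (-0.86) and Aqp4 (-0.11), and Mbp turned with the neuron covariate (-0.057) and array weights (-0.10). Leaving out single mice turned a further set, with ranges from -0.0043 (without 18-month replicate 3) to 0.098 for Atp1b1, from -1.05 to 0.066 (without 2-month replicate 1) for Slc12a4, from -0.19 (without 18-month replicate 1) to 0.60 for Fxyd2, from -1.40 to 0.29 (without 2-month replicate 2) for Slc12a9, from -0.0030 to 0.11 for Kl, from -0.25 to 0.78 for Snap25 and from -0.49 to 0.44 for Mbp. The cause was not tested where it is not the array left out or the probe sets averaged. With the replicate number as a block, Wnk1 gave 0.35 (limma, adjusted p = 0.755) and 0 genes were called. Deviations of same-numbered mice correlated at -0.02, 0.02 and 0.17 for replicates 1 to 3. Those of differently numbered mice correlated at -0.15 to 0.14, below the value of replicate 3. The labels name no pairs, and the numbers were not taken as pairs. With 3 mice an age, small differences could not be detected.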

Other observations

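Slc12a4 and Slc12a9 each had 1 mouse at 2 months far above the other 5. For Slc12a9 the gap between 2-month replicate 2 and the next highest mouse was 2.83 log2 units, and for Slc12a4 the gap between 2-month replicate 1 and the next was 1.64. Of the 12681 genes tested, 336 (2.65%) had 1 mouse at least 1.5 log2 units above the next highest. That mouse was 2-month replicate 1 for 47 genes and 2-month replicate 2 for 93, against 45 to 53 for the other mice. Gnpda1 had a gap of 1.66 in the same mouse. It was picked as nearest to Slc12a4 in profile, so this follows from the choice and is not a separate observation.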
